A study of Saccharomyces cerevisiae with 3 samples.

Results

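The heat response of wild-type cells of the budding yeast Saccharomyces cerevisiae was read from 1 of the 3 arrays of the series. On that array the Cy5 channel held RNA of wild-type cells heated to 37 °C for 15 min, and the Cy3 channel held RNA of wild-type cells kept at 25 °C. It was chosen by its label alone, and 5974 of the 6256 genes on the array gave a value. The other arrays held a strain that lacks HHO1, the gene of the linker histone, after the same heat treatment and at 25 °C, each against the wild-type RNA of 25 °C; they are used here for values set side by side. Cells grew with shaking in YPAD, a rich glucose medium with added adenine, to an optical density of 0.5. The growth field of the labels names 37 °C as the growth temperature of the heated cells, whereas the treatment field describes a rapid shift to 37 °C in cells already grown, and the second description is used here. The strain background of the wild type is not given in the labels. There was 1 array and 1 RNA sample per temperature, so no difference below has a replicate check and no test was run; n is 1 throughout.

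When budding yeast is warmed abruptly, the transcription factor Hsf1 raises the genes of chaperones, and Msn2 and Msn4 raise a broad set of genes for protection, storage carbohydrates and redox balance. At the same time the genes that build ribosomes, which take up much of the transcription of a growing cell, are turned down as protein kinase A and TOR signalling change. Many of the enzymes concerned exist as pairs of paralogues, of which one serves growth on glucose and the other is kept for stress or for poor carbon sources.

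Each value is a log2 ratio of 37 °C over 25 °C, after background correction and within-array loess normalisation, averaged over the spots of a gene. A gene is called risen or fallen where the mean reached 1 in size and no spot was under 0.58 in that direction. A moderate rise or fall is a mean of 0.58 to under 1 in size with each spot at least 0.3, near 0 is a mean under 0.3 in size with each spot under 0.5, and the genes that met none of these are called between. Loess centres the array, so the ratios are relative to the bulk of genes. A change in RNA per cell that all genes shared would not be seen, and fewer cells and less RNA per cell cannot be told apart.

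Of the 5974 genes, 692 had risen (11.6%), 596 showed a moderate rise (9.98%), 1959 lay near 0 (32.8%), 488 showed a moderate fall (8.17%) and 978 had fallen (16.4%), with 1261 between these bands. Risen genes made up 41.4% of all called, and 52.5% with the scanner's own processed signals, under which 1211 genes rose, 1097 fell and the median of all genes moved to 0.12. The SD of the ratio over all genes was 1.29 and the median was 0.00. For comparison, the same bands applied to the deletion strain at 25 °C over the wild type at 25 °C held 3 risen, 20 moderately higher, 14 moderately lower and 1 fallen gene of 5984, with 88.2% near 0. The SD between the 2 spots of a gene was 0.065 (root mean square over 3756 genes), and 0.094, 0.047 and 0.039 in dim, middle and bright genes, taken as equal parts of the list by brightness. This spread covers spotting and scanning only. Calls were more frequent among bright genes, with 115, 214 and 363 risen and 238, 307 and 433 fallen in the dim, middle and bright parts, and in 27 of the called genes 1 of the channels was not well above background.

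**Figure D1:**
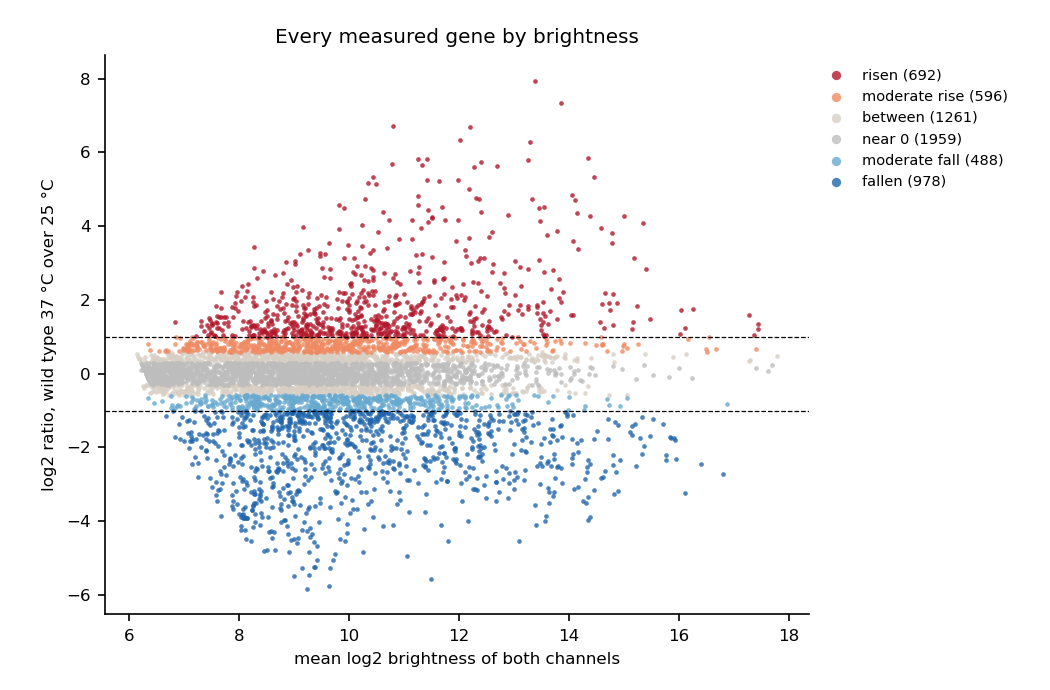
Log2 ratio of 37 °C over 25 °C (vertical axis) against the mean log2 brightness of both channels (horizontal axis) for each of the 5974 genes, coloured by band. Dashed lines mark a ratio of 1 in size. The 363 risen and 433 fallen genes of the bright part lie furthest to the right, and the cloud narrows towards 0 at the dim end.

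Calls past the size rule kept their sign under other ways of processing this array, and the moderate bands did not keep their members. All 692 risen and all 978 fallen genes had the same sign in 6 ways of processing, among them plain median centring, the scanner's own signals and the authors' deposited table, and 530 and 719 stayed past the size rule in each. Of 596 moderate rises 588 stayed above 0 in all 6 and 559 stayed at 0.3 or more, but 7 stayed within the band. Of 488 moderate falls all stayed below 0 and 22 stayed within the band. Of 1959 genes near 0, 1379 stayed under 0.58 in size. A moderate value is therefore given here as a position on a scale and not as a call.

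The label was checked against heat shock genes. Of 10 genes of small heat shock proteins and the disaggregase 8 rose and 2 were moderately higher, with a median of 5.51. HSP26, the gene of a small heat shock protein, had a normalised brightness (scanner units after background correction with an offset of 50, and loess) of 167959 at 37 °C and 682 at 25 °C, a log2 ratio of 7.94 ± 0.0074 (SD, 2 spots). HHO1 itself was at -4.26 in the heated deletion strain, over the wild type at 25 °C, and at -0.34 ± 0.016 (SD, 2 spots) in the heated wild type. The wild-type array lay on a slide of its own with its own scan, and its dyes ran the opposite way to those of the deletion arrays, so strain cannot be told apart from slide and dye at 37 °C.

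Sorted by role, 105 gene lists held 3124 of the measured genes. Of the general stress genes 40 of 43 rose. Among other shares above the background of 11.6% risen were those of storage and use of carbohydrates (57 of 136), oxidative defence (25 of 58), protein folding (36 of 111), nitrogen catabolism (6 of 22), the cell wall (19 of 77), protein degradation (35 of 160) and respiration (37 of 178). Among the roles above the background of fallen genes, 267 of 276 genes of the cytosolic ribosome and its assembly had fallen, 55 of 93 translation factors and tRNA synthetases, 32 of 52 genes of nucleotide synthesis, 59 of 200 genes of RNA processing and decay, 42 of 144 of amino acids, 32 of 121 of transport and 28 of 114 of lipids, against 16.4% of all genes. Roles with large shares near 0 were expression of the mitochondrial genome (60 of 117), chromatin (58 of 112), meiosis (21 of 41) and transcription (54 of 118), beside 32.8% of all genes. No test was made of these shares.

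**Figure D2:**
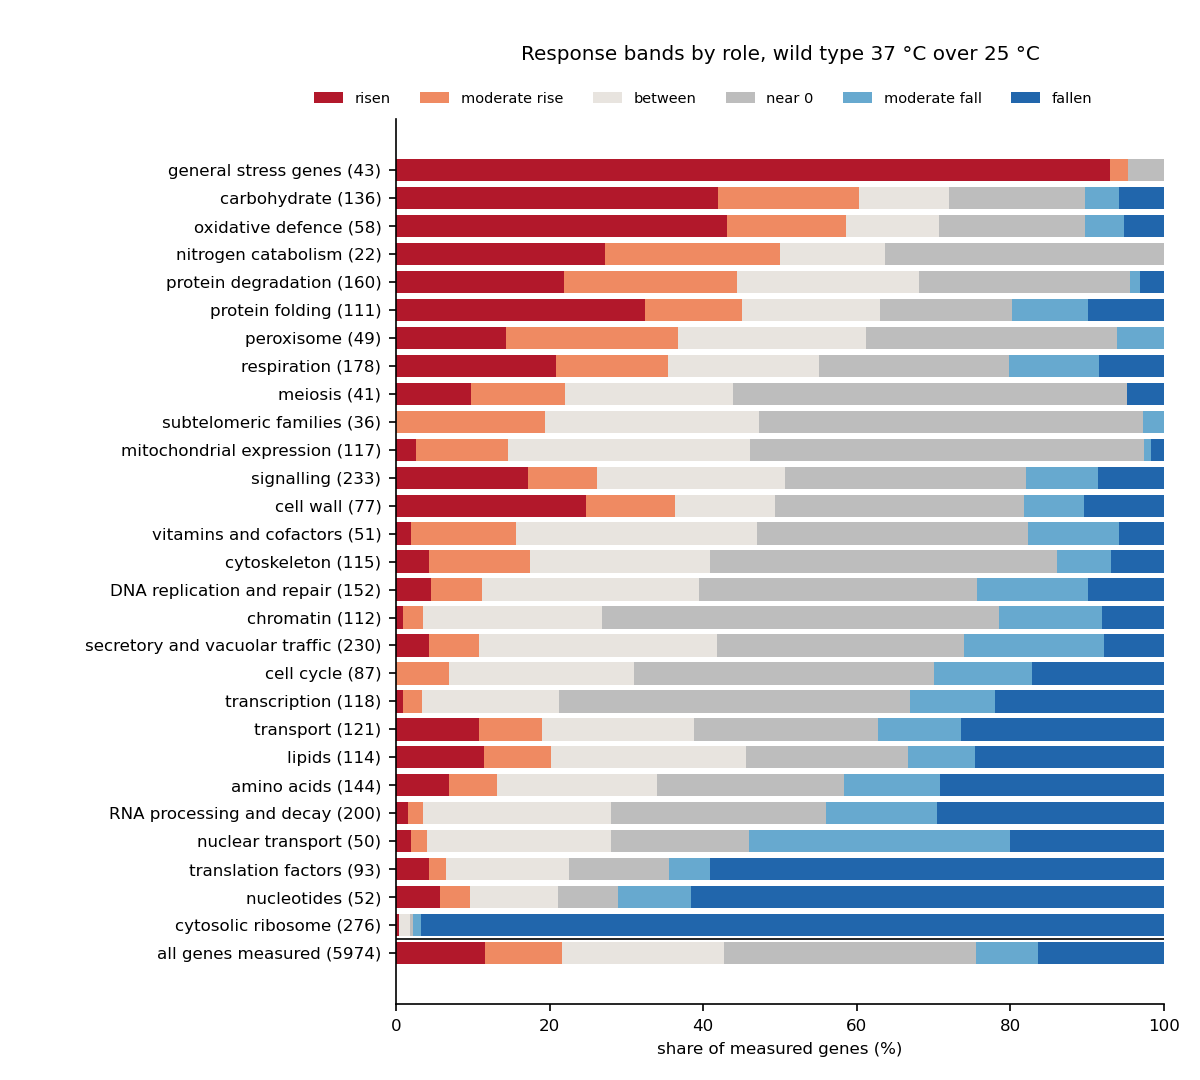
Share of measured genes in each band (horizontal axis, percent) for each role (rows, number of genes in brackets, ordered by median ratio), with all genes at the bottom. The general stress genes are nearly all risen, the cytosolic ribosome nearly all fallen, and most roles between them hold both colours beside a grey share near 0.

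Protein folding was split by where a chaperone meets its client. Among the cytosolic Hsp70 genes the stress-inducible SSA4 had a brightness of 187544 at 37 °C and 1168 at 25 °C, a log2 ratio of 7.33 ± 0.051 (SD, 2 spots), and the constitutive SSA2 rose by less, to 1.74 (1 spot). The ribosome-bound Hsp70 genes went the other way. SSB1 had a brightness of 5278 at 37 °C and 81934 at 25 °C, at -3.96 ± 0.013 (SD, 2 spots), and its near-identical partner SSB2 was at -3.88, so that the probes of these 2 genes cannot be assumed to tell them apart. The other members of the ribosome-associated complex had also fallen, with SSZ1 at -1.10 and the J protein gene ZUO1 at -1.11. JJJ1, whose product acts with Hsp70 on cytosolic pre-60S particles, was at -1.12, while the general J protein genes SIS1 and YDJ1 were at 3.82 and 1.73, and APJ1 at 2.81. HLJ1, SWA2, CAJ1, XDJ1, JJJ3, DJP1 and JJJ2 lay from -0.55 to 0.76.

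The Hsp90 machine was likewise uneven. HSP82, the inducible Hsp90 gene, rose to 5.34, the cyclophilin gene CPR6 to 4.28, the Hsp70-Hsp90 adaptor gene STI1 to 3.88, and the ATPase activator gene AHA1 to 3.59. The phosphatase gene PPT1, whose product binds Hsp90 and dephosphorylates it, fell to -3.66 ± 0.23 (SD, 2 spots), and CNS1, an essential co-chaperone gene, to -2.02 (1 spot). CDC37, the kinase co-chaperone gene, was at 0.70, SBA1 and PIH1 at 0.98 and 0.98, and CPR7, SGT1 and TAH1 between -0.51 and -0.30. The spot of HSC82, the constitutive Hsp90 gene, was flagged by the scanner software and gave no value.

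Chaperones of nascent chains did not join the rise. None of the 8 genes of the CCT chaperonin, the ring that folds actin and tubulin, rose; CCT7 and CCT5 fell to -1.58 and -1.09, and the other members ran from -0.88 for CCT8 to -0.10 for CCT6. Of 9 genes of prefoldin and of the nascent-chain complex 6 were moderately lower, from -0.94 for PAC10 to -0.70 for GIM3, and BTT1 alone of them was above 0, at 0.13. In mitochondria the disaggregase gene HSP78 rose to 5.59, the J protein gene MDJ1 to 3.34 and the chaperonin genes HSP10 and HSP60 to 3.05 and 2.83, whereas MGE1, the nucleotide exchange factor of mitochondrial Hsp70, fell to -1.37. The membrane proteases encoded by YTA12 and AFG3 were both at 0.15. In the endoplasmic reticulum the Hsp70 gene KAR2 rose to 3.14 and the oxidase gene ERO1 to 2.76, and the disulphide isomerase genes PDI1 and MPD1 to 1.31 and 1.53. CNE1, EUG1 and EPS1, which also serve folding there, were at -0.09, -0.12 and -0.31, and the sulphydryl oxidase gene ERV2 was at -0.80.

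The genes of the unfolded protein response and of endoplasmic reticulum degradation had a median of 0.38, beside 0.45 for the folding genes there. Of 14 genes 3 rose and 3 were moderately higher, beside 11.6% and 9.98% of all genes. HAC1, which encodes the factor of that response, was at 0.95, and its activating nuclease gene IRE1 at -0.16. UBC7, DER1 and UBX2, which take part in degradation, rose to 1.20, 1.15 and 1.06, and the mannosidase gene MNL1 fell to -1.87. HAC1 RNA is controlled by splicing, which these probes do not read.

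Among the degradation lists the vacuolar peptidases and autophagy had the highest medians. None of the 33 measured core and cap genes of the proteasome passed the size rule. Their median was 0.39, and 8 were moderately higher, beside 9.98% of all genes. PRE6 at 0.87 ± 0.0083 (SD, 2 spots) and SCL1 at 0.86 led, while the lowest, PRE1, was at -0.01 ± 0.035 (SD, 2 spots). Under the other settings the median of the 33 ranged from 0.35 to 0.82. RPN4, the gene of the activator of proteasome genes, was past the rule at 1.42, and NAS2, an assembly chaperone gene, at 1.22, whereas POC4, another assembly gene, had fallen to -1.27.

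Ubiquitin itself is made from 4 genes, and these split. UBI4, the stress polyubiquitin gene, had a brightness of 159555 at 37 °C and 2752 at 25 °C, at 5.86 ± 0.078 (SD, 2 spots). RPL40A, RPL40B and RPS31, which make ubiquitin fused to a ribosomal protein, fell to -1.41, -1.50 and -1.73. Of the conjugating enzyme genes UBC4 rose to 1.14, and UBC8, MMS2 and UBC5 were moderately higher at 0.99, 0.85 and 0.80. The SUMO-conjugating enzyme gene UBC9 was at -0.86. Of 30 genes of ligases, adaptors and deubiquitinases 6 had risen and 8 were moderately higher, led by the ligase gene HUL4 at 1.84, CSR2, the gene of an adaptor of the ligase Rsp5, at 1.58 and HUL5 at 1.20; UBP1 was the 1 fallen member, at -1.08. The anaphase promoting complex and SCF genes lay mostly near 0, 13 of 23, apart from SAF1 at 2.24 and APC9 at 1.52.

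Autophagy and the vacuole rose broadly, at modest sizes. Of 33 ATG genes 13 rose and 10 were moderately higher, none fell, and the median was 0.82, from 0.69 to 1.39 over the settings. ATG41 was at 2.91 ± 0.031 (SD, 2 spots), ATG8, the gene of the protein that marks autophagosome membranes, at 2.06 ± 0.044 (SD, 2 spots), and the receptor genes ATG39 and ATG19 at 1.77 and 1.68. ATG22, a vacuolar amino acid exporter gene, was lowest at -0.46. Of 13 genes of vacuolar peptidases and their inhibitors 10 rose and the other 3 were moderately higher. These included the aminopeptidase gene APE1 at 3.08, and also the inhibitor genes TFS1 at 4.77, PBI2 at 2.86 and PAI3 at 1.85. The last 2 inhibit vacuolar proteinases, so that peptidase and inhibitor genes rose side by side.

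Carbon metabolism showed which steps carry an inducible isozyme. Each of the 7 trehalose genes rose, those of synthesis (TSL1 4.52, TPS1 3.76, TPS2 3.69, TPS3 2.00) and those of breakdown (NTH1 3.17, ATH1 2.16, NTH2 2.12). For glycogen, 13 of 18 genes rose, and again phosphorylase (GPH1, 5.64) stood beside synthase (GSY2, 4.49). The cyclin genes PCL8 and PCL10, whose kinase acts on glycogen synthase, were at 0.58 and -0.10. GAC1, a glycogen-targeting subunit gene, was not well above background at 25 °C and was at least 10.8-fold higher at 37 °C.

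In glycolysis, 10 of 21 genes rose and none fell past the rule. The highest were the sugar kinase genes HXK1 (4.84), GLK1 (3.95) and EMI2 (2.84) and the second pyruvate kinase gene PYK2 (2.58). HXK2, the hexokinase gene of growth on glucose, was at -0.09 (1 spot), and CDC19, the main pyruvate kinase gene, at 0.35. The abundant enolase gene ENO1 was moderately higher at 0.95 and the dehydrogenase gene TDH3 at 0.66. The phosphofructokinase genes PFK2 and PFK1 were at -0.04 and -0.65. The first step of the pathway thus held risen genes, and these subunits of the committed step had not risen.

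The pentose phosphate pathway had a risen and an unrisen gene at 4 of its steps. SOL4, TKL2, NQM1 and GND2 rose to 5.83, 4.49, 4.72 and 3.41, while their counterparts SOL3, TKL1, TAL1 and GND1 were at 0.46, -1.23, 0.10 and 0.14. RKI1, the ribose-5-phosphate isomerase gene, which has no counterpart on the list, had a brightness of 132 at 37 °C and 2468 at 25 °C and fell to -4.23, and the epimerase gene RPE1 fell to -1.12. The first enzyme's gene, ZWF1, was at 1.00, just short of the size rule.

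Glycerol genes followed the same form. GPD1 and GPP2 rose to 2.81 and 2.46, and GPD2 and GPP1 were at 0.14 and -0.85. GCY1, DAK1 and GUT2, which take glycerol back into metabolism, rose to 4.16, 1.84 and 1.97, and the export channel gene FPS1 was at -0.24. Among fermentation genes ALD4 had a brightness of 90639 at 37 °C and 3469.7 at 25 °C and rose to 4.71 ± 0.0037 (SD, 2 spots), ALD3 was at 6.35, and ALD5 fell to -2.77 ± 0.012 (SD, 2 spots). Genes of gluconeogenesis and the glyoxylate cycle were modest, with 2 of 13 risen, the pyruvate carboxylase gene PYC1 at 1.76 and CIT2 at 1.20; the glyoxylate gene ICL1 was at 0.18, and MAE1, the malic enzyme gene, fell to -2.32.

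The hexose transporter genes reached far in both directions. HXT5, a transporter gene of slow growth, had a brightness of 8778 at 37 °C and 218 at 25 °C, a ratio of 5.33 ± 0.11 (SD, 2 spots). The low-affinity transporter gene HXT1 had a brightness of 593 at 37 °C and 7992 at 25 °C, a ratio of -3.75 (1 spot), and HXT3 2776 at 37 °C and 21458 at 25 °C, a ratio of -2.95 ± 0.067 (SD, 2 spots). The 2 low-affinity genes were thus lower in heated cells than at 25 °C, and HXT5 was higher. HXT7 and HXT6, which are near-identical and not assumed to be told apart, rose to 4.36 and 4.14, and HXT4 fell to -1.02. The sensor gene SNF3 was moderately higher at 0.88. Of 13 galactose and maltose genes 3 rose, beside 11.6% of all genes. MAL11, a maltose and trehalose permease gene, was at 1.65 and GAL7 at 1.54, while GAL1 was at -0.03. In this list 3 genes were not well above background in 1 of the channels. Its median of 0.48 was 1.27 with the scanner's processed signals and 0.05 under median centring.

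Respiratory genes rose in different shares, beside 11.6% of all genes, with most in the citric acid cycle and the middle of the chain. Of 21 citric acid cycle genes 10 rose, of 16 genes around the cytochrome bc1 complex and cytochrome c 9, of 24 cytochrome oxidase genes 7, and of 22 ATP synthase genes 3; their medians were 0.89, 1.10, 0.67 and 0.36. The risen genes of the last list were not subunits of the motor but the inhibitor genes INH1 and STF1, at 2.04 and 1.88, and STF2, at 3.66, whose product was described as a stabiliser of the inhibited enzyme. Subunit genes lay from -0.34 for ATP5 to 0.86 for ATP17. In the cycle CIT1, SDH4 and MDH1 led at 2.77, 2.17 and 2.13, while PDB1 and IDP1 were at -0.59 and -0.87.

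Other mitochondrial lists did not follow the chain. Shares over all genes were 11.6% risen and 16.4% fallen. Haem synthesis genes divided, HEM13 and HEM3 having fallen to -1.01 and -1.27 and HEM14 and HEM15 being moderately higher at 0.88 and 0.76, while the ubiquinone genes COQ4, COQ3 and COQ6 rose to 1.81, 1.24 and 1.07. Of 20 genes of iron-sulfur cluster assembly none rose and 5 fell, YAH1 and ATM1 to -2.01 and -1.90; the median of -0.17 changed sign under median centring, to 0.02. Of 33 genes of protein import 1 rose, MIA40 at 1.11, and 3 fell, PAM18, TIM10 and TIM23, at -1.29, -1.20 and -1.03. Carriers were mixed, from YHM2 at -2.54 and OAC1 at -1.99 to the carnitine carrier gene CRC1 at 2.77 and the porin gene POR1 at 1.91.

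The mitochondrial ribosome changed little. Of its 71 genes 44 lay near 0, 5 were moderately higher, none fell past either lower band, and the 1 risen member, KGD4 at 1.23, has since been assigned to a citric acid cycle enzyme. The range without it ran from -0.51 for MRP13 to 0.78 for RSM7, and the median was 0.16, or 0.13 to 0.39 over the settings. Of the cytosolic ribosomal protein genes 77 of 81 of the large and all 57 of the small subunit fell, with medians of -2.48 for the large and -2.49 for the small subunit. The same contrast appeared among tRNA synthetases, in a split of the list made after its values were seen. The 13 mitochondrial enzymes had a median of 0.38 with none fallen, and the 23 genes of the cytosolic set a median of -1.49 with 18 fallen.

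**Figure D3:**
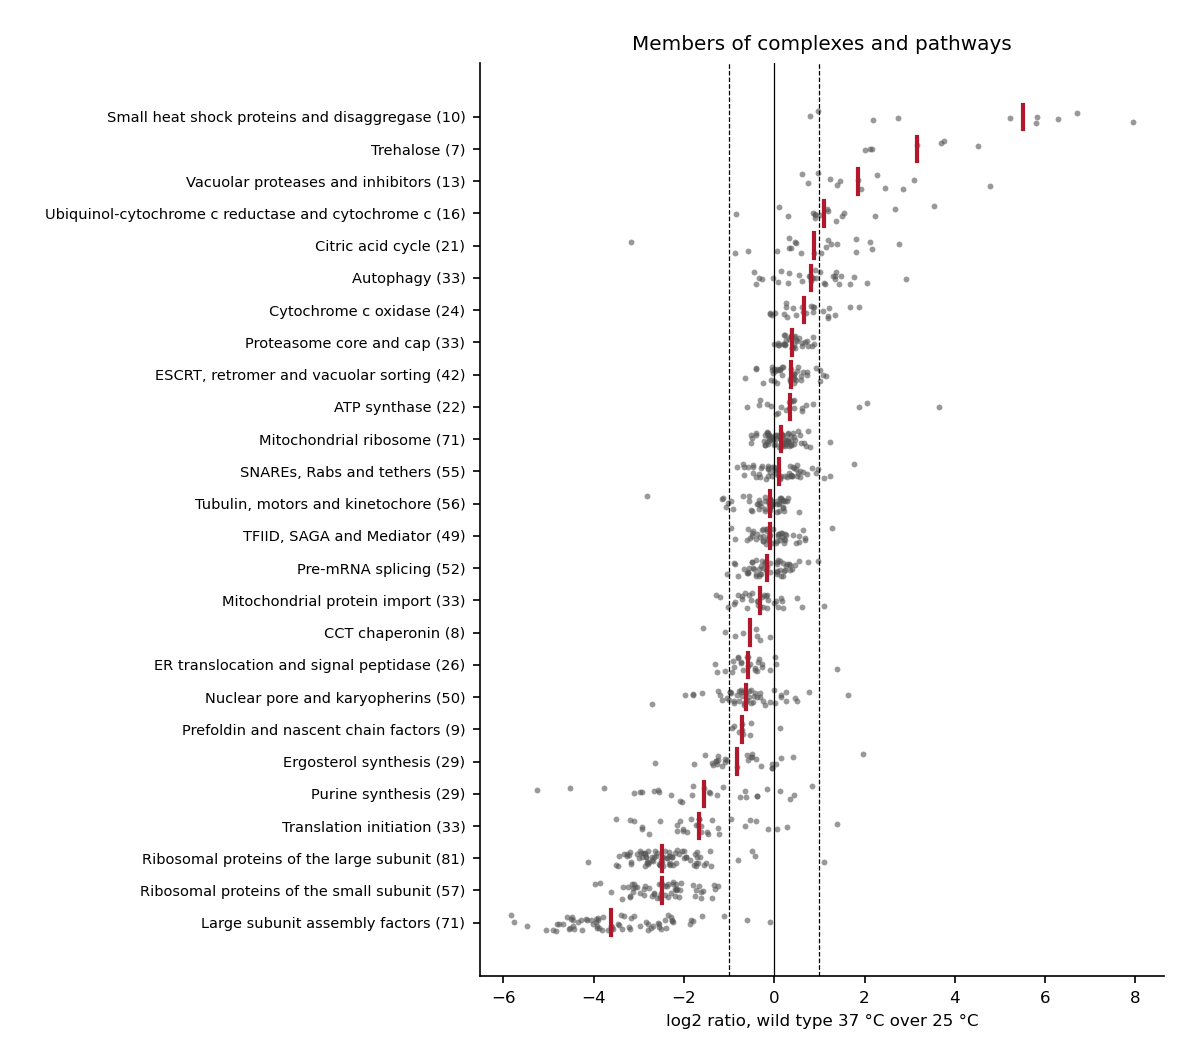
Log2 ratio of 37 °C over 25 °C (horizontal axis) for each member of 26 of the 105 gene lists (rows, number measured in brackets). Grey points are genes, red bars are medians and dashed lines mark a ratio of 1 in size. The proteasome and the mitochondrial ribosome form narrow groups at medians of 0.39 and 0.16, whereas the ribosomal proteins lie at -2.48 and -2.49.

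Peroxisome biogenesis genes had a median of 0.19 and fatty acid oxidation genes one of 0.64. Of 29 biogenesis genes 2 rose, PEX18 at 1.97 and PEX29 at 1.35, and of 20 genes of beta-oxidation and carnitine transfer 5, among them CAT2, the carnitine acetyltransferase gene, at 1.42. The risen share of all genes was 11.6%. POT1, the thiolase gene, was not well above background at 25 °C and has no ratio here.

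Oxidative defence was again a matter of particular isozymes. CTT1, the cytosolic catalase gene, was at 5.65 ± 0.034 (SD, 2 spots) and CTA1, the peroxisomal one, at 0.29 ± 0.019 (SD, 2 spots). The superoxide dismutase genes SOD1 and SOD2 rose to 1.76 and 1.71, and the copper chaperone gene of the first, CCS1, was at -0.28. The mitochondrial peroxiredoxin gene PRX1 and the stress peroxiredoxin gene TSA2 rose to 3.07 and 2.84, while the housekeeping TSA1 was at 0.79. The thioredoxin genes TRX2 and TRX1 were at 0.77 and -0.77. Of 19 glutathione and glutaredoxin genes 5 rose and 3 fell, beside 11.6% and 16.4% of all genes, with a median of 0.28. The fallen ones were GSH1, of glutathione synthesis, at -1.04, the vacuolar exporter gene YCF1 at -1.09 and the peroxidase gene GPX2 at -2.01. Glutaredoxin genes divided, GRX1 and GRX2 having risen to 2.07 and 1.48 and the iron-sensing GRX4 being moderately lower at -0.97.

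Of 31 genes of stress transcription factors 8 rose, beside 11.6% of all genes, 4 were moderately higher and 6 lay near 0, beside 32.8% of all genes. HSF1 was at 0.74 and MSN4 at 0.91, both moderately higher, and the risen genes were led by USV1 at 3.23, the repressor gene NRG1 at 1.83, CIN5 at 1.63 and GIS1 at 1.51. PHO4, SKN7, YAP7 and ASG1 were moderately lower, down to -0.97 for ASG1. RNA levels do not report the activity of these proteins.

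In the protein kinase A pathway 8 of 24 genes rose and 2 fell, and paralogues parted. IRA2, a Ras GTPase activator gene, was at 2.97 (1 spot), and its paralogue IRA1 at -0.22. Of the catalytic subunit genes TPK2 rose to 1.37 and TPK3 fell to -1.45. RAS2 rose to 1.27 and RAS1 fell to -2.27, so that both of these families held risen and fallen genes. YAK1, the kinase gene that opposes the pathway, rose to 1.85. The adenylate cyclase gene CYR1 was at 0.96.

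In the TOR list 23 of 42 genes lay near 0. LST8, which encodes a subunit of both TOR complexes, rose to 3.20 (1 spot) and YPK2 to 1.97, while TOD6, a repressor of ribosome assembly genes, fell to -2.91 and GCN4, the amino acid control activator, to -1.58. DOT6, the paralogue of TOD6, was at 0.31. Of the Snf1 and glucose repression genes CAT8 and ADR1, activators of genes for poor carbon sources, rose to 2.39 and 1.93, and the repressor genes MIG2 and MIG3 fell to -1.93 and -1.03.

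Cell wall integrity genes gave 6 risen of 26, with ROM1 at 2.63, the phosphatase gene SDP1 at 2.42, BAG7 at 1.80 and the sensor-like gene MTL1 at 1.52, and 1 fallen, the phosphatase gene MSG5 at -1.17. Osmosensing genes gave 1 risen, RCK2 at 1.33, and 3 fallen, SHO1, MSB2 and SLN1 at -1.55, -1.17 and -1.14; these encode the membrane sensors of that pathway. In the calcium list the regulator gene RCN2 and the kinase genes CMK2 and CMK1 rose to 2.14, 1.96 and 1.42, and CNA1, a catalytic subunit gene of calcineurin, fell to -1.23. For all genes the shares were 11.6% risen and 16.4% fallen.

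Mating genes had the lowest median of the signalling lists. Of 32 genes 8 fell, 8 were moderately lower and none rose, beside 16.4%, 8.17% and 11.6% of all genes. The median of the 32 was -0.51, or -0.58 to -0.26 over the settings. FAR1, the cell cycle arrest gene, was at -2.56 ± 0.032 (SD, 2 spots), the agglutinin gene AGA1 at -2.44, STE4, the G protein beta subunit gene, at -1.79 and PRM1 at -1.61, while STE11 and STE7 were at 0.45 and 0.41.

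Among ribosome genes the exceptions are given here, since nearly all fell. Of the large subunit genes RPL15B rose, at 1.11 ± 0.064 (SD, 2 spots), and RPL41A, RPL41B and RPP0 were at -0.43, -0.50 and -0.81. The least lowered small subunit gene was RPS26A, at -1.24 ± 0.0066 (SD, 2 spots), and its copy RPS26B was the lowest, at -3.98 (1 spot). Of 67 assembly factor genes of the small subunit ESF1, RRP7 and RIO1 had not fallen past the rule, at -0.52, -0.54 and -0.87, and of 71 of the large subunit RKM1, a methyltransferase gene, and RSA1 had not, at -0.09 and -0.60. For UTP13, UTP14 and UTP23 the heated cells were not well above background, and the genes were at least 13-fold, 6.6-fold and 5.4-fold lower.

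Of 36 genes of the transcription machinery of ribosomal and transfer RNA 22 fell and 8 lay near 0, beside 16.4% and 32.8% of all genes. Enzyme subunits and the DNA-bound factors of RNA polymerase III were taken out of the list after its values were seen. The other members of the list stand outside these divisions. Of 7 subunit genes of RNA polymerase I 6 fell, with a median of -3.79. All 10 subunit genes of RNA polymerase III fell, with a median of -1.85, and so did the 3 genes of subunits that both enzymes contain. The 8 genes of TFIIIC and TFIIIB, the factors that bring RNA polymerase III to its genes, had a median of 0.05 with 5 near 0, led by TFC3 at 0.45 and TFC7 at 0.30. Of the RNA polymerase II list, 3 subunits that all polymerases share fell, RPB5 to -1.66, RPB8 to -2.07 and RPO26 to -2.48, while the 7 other subunit genes of RNA polymerase II had a median of -0.30, none past the rule.

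Genes of TFIID, SAGA and Mediator, the bridges between activators and RNA polymerase II, lay near 0 in 30 of 49 cases, with the cyclin gene SSN8 at 1.29 as the 1 risen member. Chromatin remodelling and histone chaperone genes lay near 0 in 26 of 53 cases, and RVB1, the gene of a helicase in remodelling and assembly complexes, fell to -1.47. The high mobility group gene NHP6B was at 1.15 ± 0.02 (SD, 2 spots) and its paralogue NHP6A at -0.59. The medians of the TFIID and of the remodelling list, -0.10 and -0.22, changed sign under median centring, to 0.21 and 0.06. Of 45 histone modification and silencing genes 27 lay near 0; SAS2, SIR2 and SAS5 fell to -1.61, -1.10 and -1.01. The core histone genes ranged from -1.27 for HTA1 to 0.03 for HHT2, and the copies of each histone are too alike to be assumed told apart.

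RNA handling separated into maturation of transfer RNA, with a median of -1.34, and messenger RNA splicing, with a median of -0.17. Of 52 splicing genes 25 lay near 0, none rose, 1 fell, SMD1 at -1.06, and PRP46 was highest at 0.97. Of 57 genes of tRNA modification and processing 38 fell, TRM11 to -3.88, TRM82 to -3.55 and GCD10 to -3.51, the genes of tRNA methyltransferase subunits, and all 6 Elongator genes, with a median of -1.73. RPR2 and TAD2 were highest, at 0.62 and 0.39.

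In the decay list the nuclear exosome and its helper TRAMP were lower, and the cytoplasmic deadenylase was not. Of 11 exosome genes 7 fell and 4 were moderately lower, and of 5 TRAMP genes 4 fell, MTR4 with a brightness of 93.8 at 37 °C and 4134 at 25 °C, at -5.46, and AIR1 at -2.46; AIR2 was at 0.16. Of the 9 Ccr4-Not genes, of that deadenylase, 6 lay near 0 and 3 between bands. EDC2, a decapping activator gene, was highest at 2.53, and PUF2 and JSN1, genes of related RNA-binding proteins, rose to 1.12 and 1.11. Of cleavage, polyadenylation and export genes PAB1 and HRP1, which encode poly(A)-related binding proteins, fell to -2.77 and -2.56. These subdivisions were also made after the values were seen.

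Nuclear transport genes were lower by moderate amounts. Of 50 genes 10 fell and 17 were moderately lower, beside 16.4% and 8.17% of all genes. The median of the 50 was -0.62, or -0.68 to -0.23 over the settings. The lowest were importin genes, KAP123 at -2.70, PSE1 at -1.99, NMD5 at -1.81 and SXM1 at -1.80, the first pair of which import ribosomal proteins. GSP2, a Ran gene, rose to 1.63 while its main copy GSP1 was at -0.89.

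Translation initiation fell in 25 of 33 genes, including all 5 of the exchange factor eIF2B (median -1.48) and 5 of 6 of eIF3 (median -1.88). TIF4631, one of the genes of the scaffold eIF4G, fell to -3.12 and its paralogue TIF4632 was at 0.06. DBP1, the helicase gene related to DED1, rose to 1.40, and DED1 was at -0.66. In elongation YEF3 fell to -3.52, its paralogue HEF3 was at 0.88, and the genes of diphthamide and hypusine modification DPH1 and LIA1 fell to -3.61 and -4.10. TEF2 and CAM1, of elongation factor 1, were at 0.48 and 0.35.

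Amino acid genes fell in 42 of 144 cases and rose in 10, beside 16.4% and 11.6% of all genes. Of the 10 risen ones 7 serve breakdown. ARO9 and ARO10, of aromatic amino acid breakdown, had a brightness of 33724 at 37 °C and 1708 at 25 °C for ARO9 and 12601 at 37 °C and 673 at 25 °C for ARO10 and rose to 4.30 ± 0.0049 (SD, 2 spots) and 4.23 ± 0.089 (SD, 2 spots); CAR2 and CAR1, of arginine breakdown, rose to 2.57 and 1.60, PUT1, of proline breakdown, to 1.33 and CHA1, of serine and threonine breakdown, to 2.33. Among the fallen ones were many of synthesis, with LYS4 at -3.53, ILV5 at -3.36, PRO1 at -2.60 and SHM1 at -2.02. Of arginine synthesis ARG8 was moderately lower at -0.80 and ARG2 was near 0 at 0.11, and the arginine and glutamate list had a median of 0.11.

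The sulfur and methyl cycle list fell at the methyl end. SAM1, an S-adenosylmethionine synthetase gene, had a brightness of 416 at 37 °C and 19819.7 at 25 °C, at -5.57, and SAM2 1048 at 37 °C and 3822 at 25 °C, at -1.87. MET6, the methionine synthase gene, and SAM4 fell to -2.37 and -2.10. Of sulfate assimilation MET3 and MET10 were at -0.61 and -0.42, and MET28, the gene of a factor that controls the pathway, was the 1 risen member at 1.03. Among permease genes TAT1, BAP3, OPT1 and HIP1 fell to -2.63, -1.67, -1.65 and -1.29, and AGP2 rose to 1.85.

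Nucleotide synthesis had the highest share of fallen genes among the metabolic roles. Of 29 purine genes 19 fell and none rose, with AAH1, the adenine deaminase gene, at -5.26, IMD4, of guanine nucleotide synthesis, at -4.53, the salvage gene HPT1 at -3.78 and GUA1 at -3.10. Of 23 pyrimidine and deoxynucleotide genes 13 fell, URA7 to -5.26, the cytosine and uridine permease genes FCY2 and FUI1 to -4.11 and -3.54, and URA1 to -3.67. URA8, URA10 and YNK1 rose to 1.22, 1.16 and 1.06.

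Lipid genes divided by class. Of 29 ergosterol genes 14 fell, ERG3 to -2.63 and ERG11 to -1.54, and ARE2, a sterol esterification gene, rose to 1.97. In fatty acid synthesis ELO3, FAA4, ELO2 and OLE1, the desaturase gene, fell to -2.93, -2.88, -2.31 and -2.31, whereas FAA1, an acyl-CoA synthetase gene, rose to 2.60. Of 34 phospholipid genes 5 rose, near the 11.6% of all genes, and 2 fell, against 16.4% of all genes, with the acyltransferase gene GPT2 at 1.63, CKI1, the choline kinase gene, at 1.48 and OPI3 at 1.42. For sphingolipids the ceramidase genes YPC1 and YDC1 rose to 2.12 and 1.84, and AUR1, which makes inositol phosphorylceramide, fell to -2.11.

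The medians of the secretory lists differed between its early and its late steps. Over all genes 8.17% were moderately lower, 16.4% fell, 32.8% lay near 0 and 11.6% rose. Of 26 genes of translocation into the endoplasmic reticulum 11 were moderately lower and 3 fell, the Sec61-like gene SSH1 to -1.31, and 1 rose, SGT2 at 1.39. Of 45 genes of N-glycosylation and GPI anchors 10 were moderately lower and 7 fell, with ALG3 at -1.86 and PSA1, which makes GDP-mannose, at -1.81. Of 28 mannosyltransferase genes 9 were moderately lower and 7 fell, MNN1 to -2.42. The coats of vesicles between endoplasmic reticulum and Golgi lay near 0 in 17 of 34 cases with 1 fallen, and SNARE, Rab and tether genes in 21 of 55 with none fallen. Of 42 genes of sorting to the vacuole 4 rose (9.52%), BRO1 at 1.16, VPS13 at 1.07, VPS17 at 1.02 and SNF7 at 1.01, and none fell. The medians along this route were -0.59, -0.53, -0.63, -0.19, 0.10 and 0.36; under median centring they were -0.27, -0.16, -0.26, 0.19, 0.39 and 0.46, so that the early ones were nearer 0 and that of the coats changed sign.

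Phosphate acquisition had the lowest median of the transport lists, -1.12. Of 24 genes 12 fell, all 4 secreted acid phosphatase genes among them, with PHO12 and PHO11, which are near-identical, at -3.56 and -3.44, the sodium-coupled transporter gene PHO89 at -3.42 (1 spot), PHM6 at -3.24, and all 4 VTC genes of polyphosphate synthesis at a median of -1.57. The low-affinity transporter gene PHO90 fell to -3.18, while PHO87 was at 0.91. PHM7 and PHM8, also named for phosphate metabolism, rose to 4.57 and 3.15. Of 44 metal genes 11 fell and 4 rose, beside 16.4% and 11.6% of all genes. Among the fallen were the ferric reductase gene FRE1 at -3.22, the low-affinity iron transporter gene FET4 at -1.92 and the vacuolar zinc transporter gene ZRC1 at -1.64. The risen ones were led by the haem oxygenase gene HMX1 at 1.88. Multidrug transporter genes ran from AQR1 at -2.29 to TPO4, a polyamine exporter gene, at 3.00. The proton pump regulator genes PMP1 and PMP2 fell to -1.69 and -1.27.

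At the cell surface, 12 of 61 wall genes rose and 8 fell, beside 11.6% and 16.4% of all genes. SPI1, YPS6, PIR3 and CWP1 rose to 4.82, 2.61, 2.53 and 2.31, and the glucan-modifying genes SCW10, GAS1 and UTR2 fell to -4.00, -1.77 and -1.72. Of 16 eisosome and membrane domain genes 7 rose and none fell; LSP1, which builds eisosomes, was at 2.21.

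Of the cytoskeleton lists, that of tubulin, motors and kinetochores had 67.9% of its genes near 0. That of actin, endocytosis and polarity had 23.7%, beside 32.8% of all genes. Of 56 genes of tubulin, motors and kinetochores 38 lay near 0 and none rose; CIN2, a tubulin-folding factor gene, fell to -2.81, CIN4 to -1.16 and ALF1 to -1.13, 3 of the 5 fallen members and all of tubulin folding. Of 59 actin and endocytosis genes 5 rose, beside 11.6% of all genes, and 15 were moderately higher, beside 9.98%, led by the bundling protein gene SAC6 at 1.47. The 7 genes of the Arp2/3 complex, taken out after the values were seen, had a median of 0.83, 0.72 to 1.12 over the settings. Genes of cell polarity stood at the low end, MYO4, AXL2 and RSR1 at -1.15, -1.08 and -1.03.

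No cyclin or cell cycle regulator gene of 53 rose, and 10 fell (18.9%), beside 11.6% risen and 16.4% fallen of all genes. FAR1, CLN2, CLN1 and PCL1 were lowest, the G1 cyclin genes CLN2 and CLN1 at -1.77 and -1.70 and PCL1 at -1.43; SIC1, the inhibitor gene, was highest at 0.95. Of 53 replication genes 24 lay near 0 (45.3%) and 7 fell (13.2%), beside 32.8% and 16.4% of all genes. Among the fallen were POL30, the sliding clamp gene, at -2.42 and POL12 and POL1, of polymerase alpha, at -1.64 and -1.45. TAH11, a licensing gene, rose to 2.50 ± 0.0024 (SD, 2 spots). Of 67 repair genes 6 rose (8.96%) and 4 fell (5.97%), beside 11.6% and 16.4% of all genes. Among the risen were the photolyase gene PHR1 at 2.36, RAD16 at 1.33, MAG1 at 1.32 and RAD4 at 1.19, and MSH6 fell to -1.98. Of 9 nucleotide excision repair genes, taken out after the values were seen, 3 rose, with a median of 0.79.

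Lists that serve other conditions differed. Of 41 measured meiosis and sporulation genes 21 lay near 0, and 10 were not well above background in 1 of the channels; their median of 0.23 was 0.89 with the scanner's processed signals and -0.41 under median centring. RIM4, a meiotic RNA-binding protein gene, was at least 5.37-fold higher at 37 °C than the background-limited signal of 25 °C. Subtelomeric COS and PAU genes lay near 0 in 18 of 36 cases and none passed the size rule. Of 51 vitamin and cofactor genes 18 lay near 0, close to the 32.8% of all genes; PNC1, the nicotinamidase gene, rose to 4.27, and FOL1, BIO2 and VHT1 fell to -1.89, -1.35 and -1.30. Nitrogen catabolism genes were higher in part, 6 of 22 having risen and none fallen, with UGA2 and UGA1, of aminobutyrate use, at 2.18 and 1.53. Of the 7 measured genes of the mitochondrial genome 5 lay near 0 and OLI1 was lowest, at -0.82; 4 of the 7 were not well above background in 1 of the channels, and their median of -0.06 was 0.64 with the scanner's processed signals and -0.75 under median centring.

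Members of the non-ribosomal pairs listed here differed more than ribosomal protein copies did. Those pairs were chosen with earlier results of these data known, and they were not compared with arbitrary pairs of genes. Probes of near-identical ribosomal protein copies are not assumed to tell them apart, so small differences there may be 1 signal read by both probes. Of 200 non-ribosomal pairs with both values, paralogues but for 1 pair of isozymes unrelated in sequence, the median difference was 1.28 in size, 116 differed by at least 1 and 62 by at least 2, against a median of 0.30 and 2 pairs of 59 for the ribosomal protein copies. In 80 of the 200 pairs 1 member had risen and the other had not, in 48 pairs 1 had fallen and the other had not, and in 22 and 18 pairs both had risen or both had fallen. A gap of 2 is far outside the spot SD of 0.065, which covers spotting and scanning and not the spread between probes or RNA samples. Over the other settings 57 to 73 pairs differed by at least 2, and 55 to 62 of the 62 were among them.

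In 16 pairs 1 member had risen and the other had fallen. The widest was HXT5 over HXT3, followed by the mitochondrial aldehyde dehydrogenases ALD4 and ALD5 and the CTP synthases. URA8 had a brightness of 4889.9 at 37 °C and 2099 at 25 °C and URA7 129.9 at 37 °C and 4968 at 25 °C, and their ratios were 1.22 ± 0.0018 (SD, 2 spots) and -5.26 (1 spot). Further pairs were the transketolases TKL2 (4.49) and TKL1 (-1.23), the acyl-CoA synthetases FAA1 (2.60) and FAA4 (-2.88) and the reticulons RTN2 (4.37) and RTN1 (just past the rule). The dual-specificity phosphatases SDP1 and MSG5, the yapsins YPS1 (1.21) and MKC7 (-2.35) and the Ras proteins followed.

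Other opposed pairs lay nearer the threshold. Among them were the branched-chain aminotransferases BAT2 (1.04) and BAT1 (-2.41), the glutathione peroxidases GPX1 (1.11) and GPX2 (-2.01), the orotate phosphoribosyltransferases URA10 (1.16) and URA5 (-1.87), the glycyl-tRNA synthetases GRS2 (1.23) and GRS1 (-1.68), and the glucan synthases GSC2 (1.01) and FKS1 (-1.43). Of the 16, between 12 and 16 stayed opposed under each of the other settings.

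**Figure D4:**
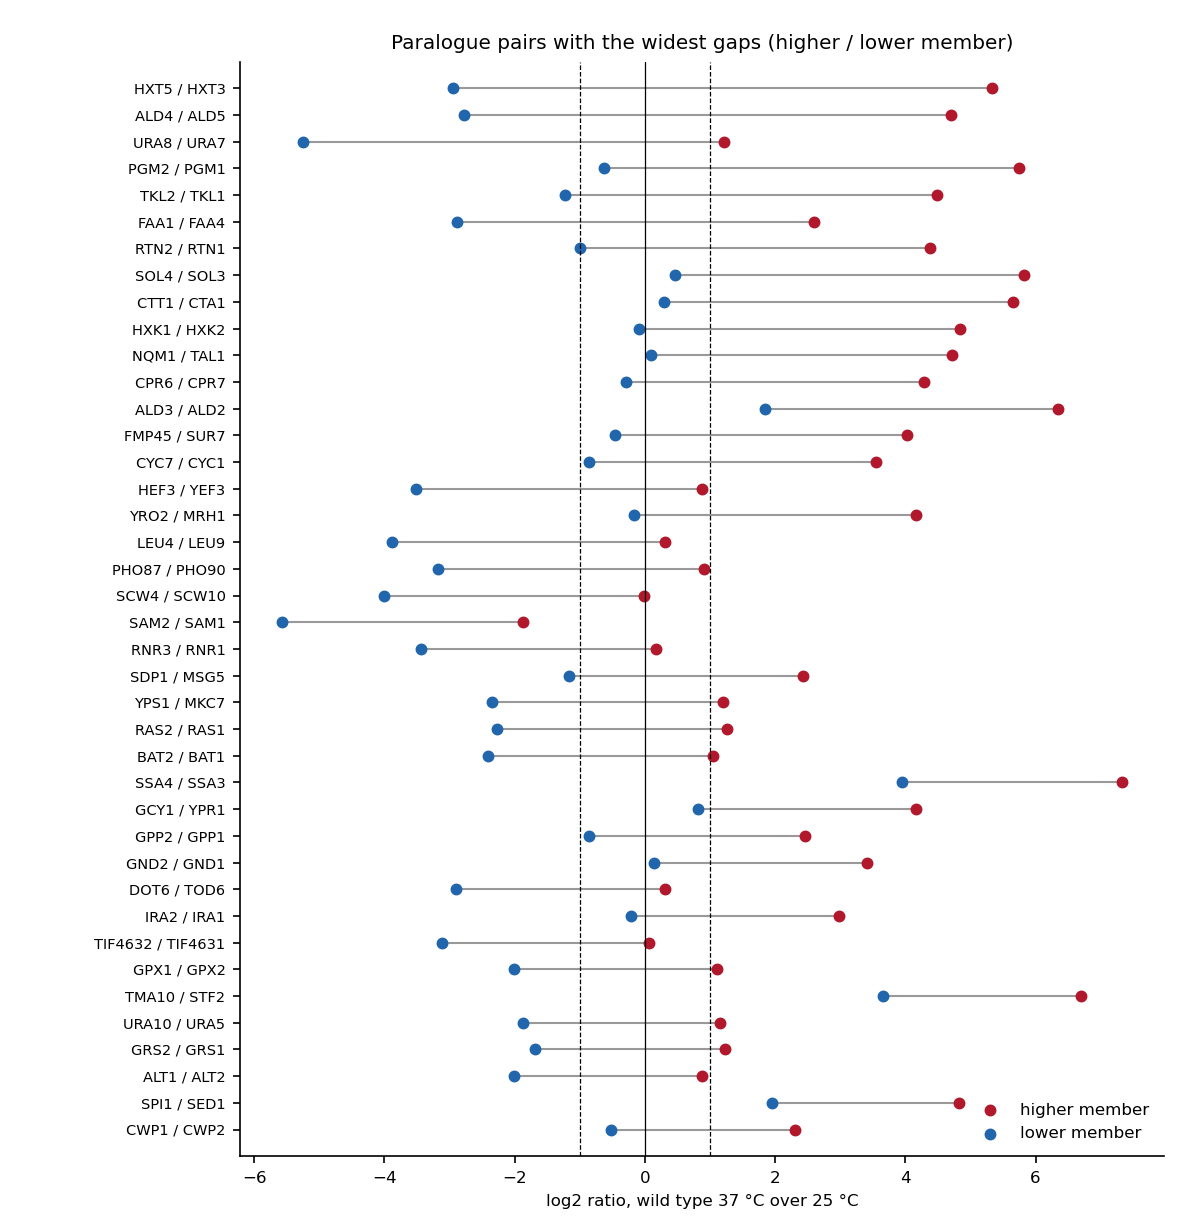
Log2 ratio of 37 °C over 25 °C (horizontal axis) of both members of the 40 paralogue pairs with the widest gaps among those reported here, both members well above background in at least 1 spot of each channel. Red marks the higher and blue the lower member, and dashed lines mark a ratio of 1 in size. In the upper rows the members lie on opposite sides of 0, as for HXT5 at 5.33 and HXT3 at -2.95.

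In a second form of divergence 1 member rose and the other did not. PGM2, the main phosphoglucomutase gene, had a brightness of 39830.2 at 37 °C and 743 at 25 °C and PGM1 2469 at 37 °C and 3809 at 25 °C, and their ratios were 5.74 ± 0.075 (SD, 2 spots) and -0.63 ± 0.019 (SD, 2 spots). FMP45 and SUR7, of the eisosome domain, were at 4.03 and -0.46, YRO2 and MRH1, related membrane proteins, at 4.17 and -0.17, and the cytochrome c genes CYC7 and CYC1 at 3.55 and -0.86. In another form 1 member fell alone, as for LEU9 at -3.88 and LEU4 at 0.31, SCW10 at -4.00 and SCW4 at -0.01, and the ribonucleotide reductase genes RNR1 at -3.44 and RNR3 at 0.17. At the other end, called pairs with nearly equal ratios included the near-identical EFT2 (-1.76) and EFT1 (-1.72), INH1 and STF1, and HTA1 and HTA2 (-1.08). Where 2 genes are near-identical, equal ratios may be 1 signal read by both probes.

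Genes outside the lists responded too. Of 2850 genes in no list 337 rose and 293 fell, against 355 and 685 of the 3124 in at least 1 list. Their risen share was close to the 11.6% of all genes, and their fallen share was below the 16.4% of all genes. Apart from reading frames that overlap a known gene, the highest of them were RGI1, which is named for respiratory growth, at 5.26 ± 0.045 (SD, 2 spots), EGO4 at 5.16, YMR196W at 4.74, the butanediol dehydrogenase homologue gene BDH2 at 4.53 and UIP4 at 3.92. The lowest, with the same exception, were INA1 at -4.93 ± 0.09 (SD, 2 spots), CBF5, the pseudouridine synthase gene of ribosomal RNA, at -4.48, RRB1, whose product escorts a ribosomal protein, at -4.34, SYO1, which escorts a pair of them, at -4.23 and NHP2, of the same small RNA particles as CBF5, at -4.21. GID10 was not well above background at 25 °C and was at least 6.03-fold higher at 37 °C. Of 454 genes that have no symbol in the R64 annotation 64 rose and 30 fell, beside 11.6% and 16.4% of all genes.

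**Figure D5:**
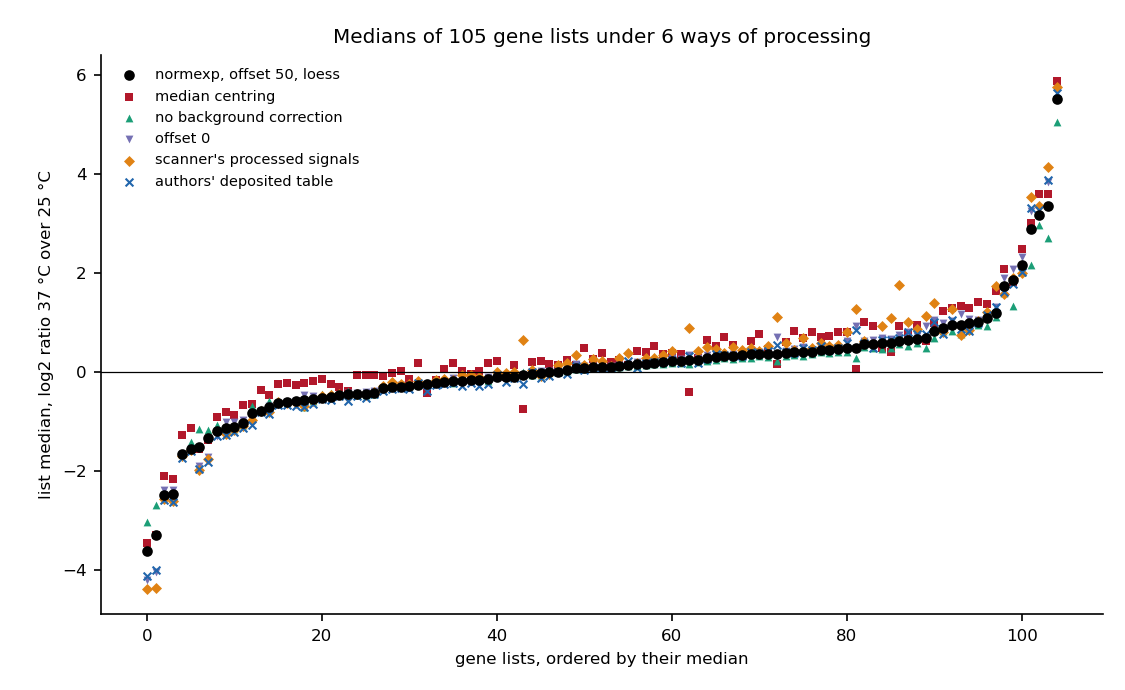
Median log2 ratio of 37 °C over 25 °C (vertical axis) of each of the 105 gene lists (horizontal axis, in order of the median) under 6 ways of processing, each with its own marker. The order holds at both ends, and near the middle most red squares of median centring lie above the rest. Under median centring 13 lists change sign, among them meiosis and sporulation, which moves down from 0.23 to -0.41.

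Heated cells without HHO1 were read against the same 25 °C RNA; since the arrays share it, likeness between them is not evidence of its own. For HSP26 the ratio was 6.80 in heated cells without HHO1, against 7.94 in heated wild-type cells. SSA4 stood at 5.95 without HHO1 and 7.33 with it, ALD4 at 4.66 without and 4.71 with it, ALD5 at -2.86 without and -2.77 with it, SSB1 at -3.94 without and -3.96 with it, and HXT5 at 5.65 without and 5.33 with it. RPL15B, the 1 risen ribosomal protein gene, stood at 0.43 without and 1.11 with it, ATG41 at 1.58 without and 2.91 with it, and KGD4 at 0.47 without and 1.23 with it. Ratios of RPL15B and KGD4 were thus under 1 in the strain that lacks HHO1, on an array of another slide and dye orientation.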

How the data were processed

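RNA of yeast cells was hybridised to 3 Agilent 2-colour arrays, of which 1 carries the wild-type heat response. The deposited scanner files hold spot intensity in each channel, and per the file headers they were made with Feature Extraction 9.1.1.1, which also gives a log10 ratio of red over green. The authors' deposited table holds log2 ratios; per the submitters' processing notes limma was used, with steps not given in the sources used here. Its direction was set against the scanner's ratios, with correlations of 0.733, 0.964 and 0.970 over the gene spots of the arrays and medians of -0.01, -0.05 and -0.02. How the authors centred those log2 ratios is unknown.

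Intensities were background-corrected with normexp at an offset of 50, normalised by loess within the array and averaged over the spots of a gene (R 4.3.3, limma 3.58.1, Python 3.11.15, pandas 2.3.3). Of 10263 gene spots 20 were flagged and left out, and none was saturated. At 37 °C 94.7% of spots were well above background and at 25 °C 90.2%. In 288 genes at 25 °C and 19 at 37 °C no spot was. These stayed in the counts and medians with their measured ratio, and where the text names one it gives a bound or no ratio. The bound sets the bright channel against the lowest signal among spots well above background. Each precision rests on 1 array, and ratios are relative to the bulk of genes. Whether replicate RNA would agree was not measured.

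Of 6256 genes 5756 matched the R64 gene table by systematic name, 148 symbols were updated and 500 kept the file's name. Genes were named where a list held up to 12 genes, or as the 4 highest, 4 lowest and 2 nearest the median of longer lists and up to 4 of their brightest moderate members. Pairs were named where they differed by at least 2, were called in opposite directions or, for up to 8 called pairs, differed least, and of the rest the 10 highest and 10 lowest unlisted genes and the 6 largest bounds. Not every gene or pair that met these rules is named in the text. The lists, pairs and rules were chosen with earlier results of these data known, and the subdivisions of lists after their values were seen. Probes of near-identical genes were not assumed to tell them apart. The alternatives were median centring, no background correction, an offset of 0, the scanner's processed signals, the deposited table, other filters on dim spots and the brightest spot. Promoter motifs and protein identities were not analysed here, and a few genes are not reported here.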

Additional observations from a re-analysis of the deposited data

How the results depend on the processing

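Both counts of called genes were recomputed under 8 alternatives. Genes risen numbered 1211 with the scanner's processed signals, beyond 1.5 times the 692 reported, and 530 to 995 under the other alternatives. Genes fallen numbered 879 to 1127. With the scanner's processed signals 683 of the 692 risen genes and 969 of the 978 fallen ones were again called. The median of all genes moved by 0.12 there, and the cause was not tested. Of 105 list medians 89 kept their sign under all 8 alternatives, and 13 of the other 16 changed sign under median centring, which put that of all genes at 0.06. No paired analysis was possible because there was 1 array and no test. With 1 array, no replicate could be left out. Depth limits the dim genes, where 1 channel is near background and a ratio is compressed towards 0 by the offset of 50; 860 genes rose and 1073 fell with an offset of 0. The promoter and protein comparisons planned at the outset were not run.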

Other observations

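Neighbouring genes were set against each other by orientation, with order taken from the R64 gene table. Over 1341 divergent pairs the correlation of their log2 ratios was 0.21, over 2535 tandem pairs 0.10 and over 1383 convergent pairs 0.06, as a description across genes of 1 array. Of the neighbours of risen genes 21.0% had risen in divergent pairs, 16.6% in tandem pairs and 11.5% in convergent pairs, beside 11.6% of all genes. For fallen genes the shares were 26.9%, 22.6% and 20.3%, beside 16.4% of all genes.

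Some of the largest ratios outside the lists belong to reading frames that overlap a known gene, and the values of both were set side by side; the partners SYM1 and NOP58 were chosen after their values were seen. YBR116C was at 5.68 and the transketolase gene TKL2, which it overlaps, at 4.49. YLR252W was at 3.65 and SYM1, a mitochondrial membrane protein gene, at 3.46. YOR309C was at -5.23 and NOP58, of small nucleolar RNA particles, at -4.49. YMR304C-A was at -4.09 and SCW10 at -4.00. Probes of overlapping frames may read 1 RNA, and strand was not examined.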
